A study of Mus musculus with 6 samples.

Results

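The 10 genes described here are the core machinery that decides whether a cell leaves G1 and copies its DNA: the D-type cyclins Ccnd1, Ccnd2 and Ccnd3, their kinases Cdk4 and Cdk6, the Cip/Kip inhibitors Cdkn1a (p21) and Cdkn1b (p27), the INK4 inhibitors Cdkn2a (p16INK4a and p19ARF) and Cdkn2c (p18INK4c), and Rb1, the retinoblastoma protein. They were chosen by name among the 37074 gene names of the array. The array carries 25 probes for them among 56605 transcript probes, and 24 of the 25 passed the filter on dim spots, 1 Cdkn2a probe being below background on all 6 arrays. All 10 genes were tested among 20645.

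The RNA came from osteoclasts, the multinucleated cells that resorb bone, grown from bone marrow of 3 Ano1fl/fl mice and 3 Ctsk-Cre;Ano1fl/fl mice. The methods describe the controls as littermates, without matching arrays to litters. Both groups carry loxP sites on both copies of Ano1, which encodes a calcium-activated chloride channel, and the second group also carries Cre recombinase driven by the cathepsin K gene. That promoter is active in osteoclasts as they mature, so excision is not directed at their precursors, and samples with Cre alone were not analysed here. RANKL, the differentiation signal of osteoclasts, was given to both groups for 5 days. The methods for such cultures state 50 ng/ml RANKL, 30 ng/ml M-CSF and mice of 6 to 8 weeks, without giving an age for the array samples.

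D cyclins bind Cdk4 or Cdk6, and the active kinase phosphorylates the retinoblastoma protein, which then releases E2F factors that switch on genes for DNA replication. INK4 proteins block Cdk4 and Cdk6 themselves, whereas p21 and p27 act mainly on kinases bound to cyclins E and A. In bone marrow cultures M-CSF drives division of osteoclast precursors, and mature osteoclasts, which form by fusion, no longer divide.

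All 6 arrays shared 1 slide and 1 scan. Row 1 of the slide held Ano1fl/fl 1 and 2, and row 2 held Ano1fl/fl 3 and all 3 Ctsk-Cre;Ano1fl/fl arrays, so a fit with slide row in the model takes the difference from Ano1fl/fl 3 as its single control, as does a fit of row 2 alone. Between 33480 and 34951 of 59305 transcript spots were well above background and 0 were saturated. Arrays of the same group correlated at 0.995 to 0.997 over all tested genes, and arrays of different groups at 0.947 to 0.951. The single Ano1 probe was below background on all 6 arrays, so the deleted gene could not check the labels, and an exchange of the groups, which would turn the sign of every difference below, was not tested. Osteoclast markers were present in both groups and 11 of 11 were higher in Ctsk-Cre;Ano1fl/fl cultures, with a summed signal of 147000 to 159700 on the control arrays and 506900 to 570100 on the others. Among them Ctsk differed by 3.17, Mmp9 by 4.36 and Acp5 by 0.84 on the log2 scale, and a second Nfatc1 probe gave -0.53 where the brightest gave 0.53. For osteoclast markers this direction is opposite to the one the study describes in osteoclasts of these genotypes. Of 14 stromal markers 13 were higher (summed signal 2987 to 4004 against 65710 to 109800, with Lum and Pdgfra above background on 0 control arrays and Postn on 1), as were 5 of 5 B cell markers (7446 to 8971 against 28720 to 55970). Of 11 markers of neutrophils and their precursors 8 were lower and 1, Ltf, was higher (summed signal 355000 to 373200 against 214500 to 268800), while the summed signal of 9 macrophage markers was 370800 to 395700 against 395000 to 435200. Sums were higher for erythroid (2220 to 2773 against 10970 to 13040) and osteoblast markers (189.6 to 234.9 against 966.8 to 1378). They were lower for endothelial markers (3644 to 4765 against 1706 to 1988). Each of these 3 lists had 1 gene called higher and 1 lower. The part of these marker changes in the results below was not tested, and in RNA from whole cultures fewer cells of a type and less RNA per cell cannot be told apart.

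The probes differ in what they read, so the sequences behind the main results are given first. Positions are in mm9 numbering, by their coordinates, since the array files name no build. Sequences run 5′ to 3′ in the sense of the transcript, in lower case except in the last, where capitals mark an ATG. The Ccnd2 probe and the Cdk4 probe that lie in coding sequence are shown whole, and of the others only the last 30 of 60 bases. The first line reads Ccnd2 at chr6:127098696-127098755 on the minus strand and the second reads Cdk4 at chr10:126503162-126503221 on the plus strand. The next 4 are the brightest probes of Ccnd1 (chr7:152116202-152116261, minus), Cdkn2c (chr4:109333779-109333838, minus), Cdkn2a (chr4:88920405-88920464, minus) and Rb1 (chr14:73595408-73595467, minus), followed by the other Rb1 probe (chr14:73596841-73596900, minus).
Ccnd2 coding probe: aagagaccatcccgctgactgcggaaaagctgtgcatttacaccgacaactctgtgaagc
Cdk4 coding probe: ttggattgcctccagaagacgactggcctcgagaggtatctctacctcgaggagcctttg
Ccnd1 probe end: gttttgtgttaattacagcattgtgctaat
Cdkn2c probe end: gttggctgtccgtttcactatcacttatta
Cdkn2a probe end: aagggaataatggctggattgtttaaaaaa
Rb1 probe end, position 4466: aaagctgcagacactgcactattggttttg
Rb1 probe end, position 3033: aatgttgtaatcaatggtagagaattgata
The 3 Cdkn1a probes, set out next because their results part, read chr17:29237377-29237436, chr17:29227986-29228045 and chr17:29235299-29235358 on the plus strand.
Cdkn1a probe end, transcript position 1619: gctgatcctttctcagtgttgaataccgtg
Cdkn1a probe end, transcript position 55: acgtcccactttgccagcagaataaaaggt
Cdkn1a probe end, transcript position 147: tcttgtgtttcagccacaggcaccATGtcc

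Measured as each gene's brightest probe, 3 of the 10 genes rose in Ctsk-Cre;Ano1fl/fl osteoclasts (Ccnd2, Cdkn2a and Rb1), 6 fell (Ccnd1, Ccnd3, Cdk4, Cdk6, Cdkn1b and Cdkn2c) and Cdkn1a was not called. The call is limma's moderated test at an adjusted p under 0.05 (Benjamini-Hochberg over all 20645 genes). By that rule 52.4% of all tested genes were called, 23.4% higher and 29% lower, so most genes differed between these cultures and a call by itself does not set the 10 apart. The second Rb1 probe fell, as described below. Of the 10, 4 were called with a change of more than 2-fold, Ccnd2 and Cdkn2a upward and Ccnd1 and Cdkn2c downward, beside 17.1% of all tested genes (9.88% upward and 7.19% downward). With slide row in the model or in row 2 alone, Ano1fl/fl 3 is the single control. Fewer of the 10, and fewer of all tested genes, were then called. The 3 values of each group lay apart for 9 of the 10, where 64% of all tested genes had groups that did not overlap. The median difference of the 10 genes was -0.28 on the log2 scale and that of all tested genes was -0.06.

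**Figure D1:**
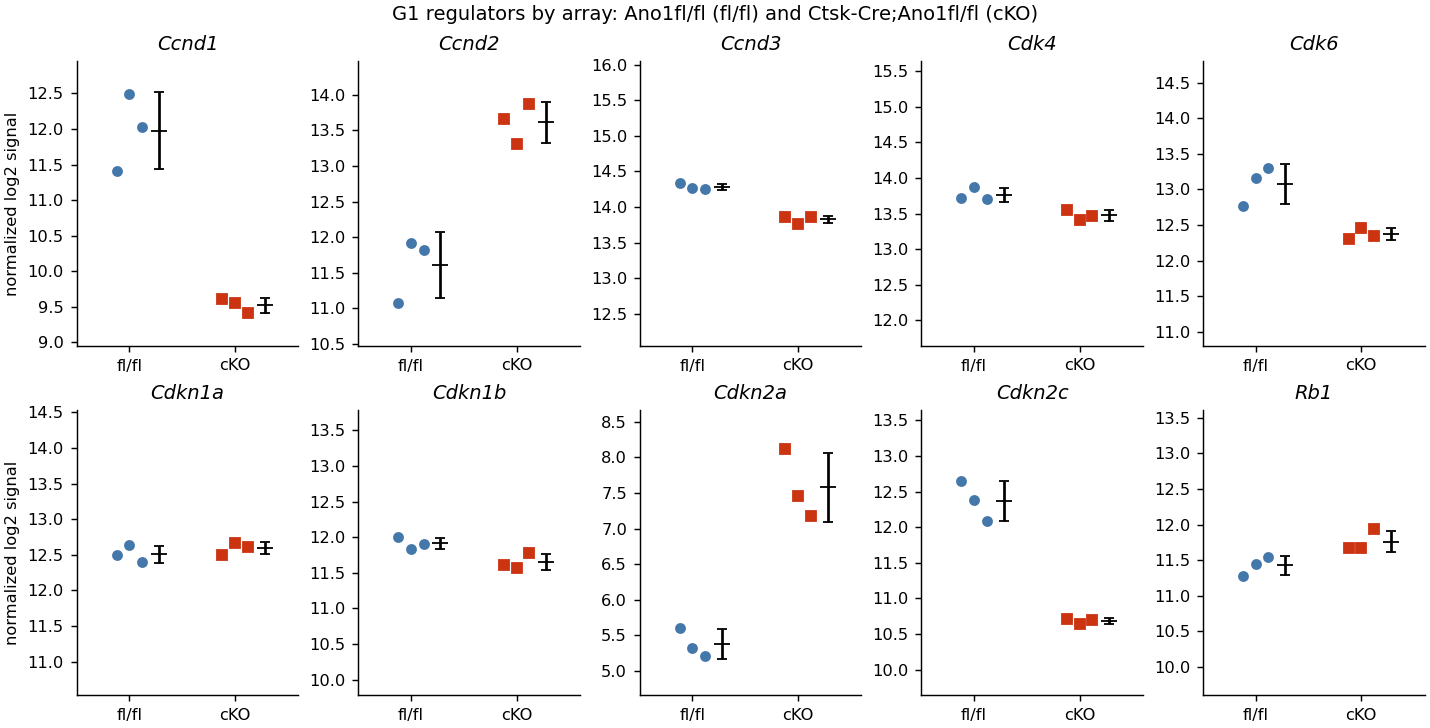
Normalized log2 signal of the brightest probe of each gene, one point per array (circles, Ano1fl/fl, labelled fl/fl; squares, Ctsk-Cre;Ano1fl/fl, labelled cKO), with the mean and SD of the 3 arrays as a black bar. Every panel spans 4 log2 units around its own centre, so the gaps for Ccnd1, Ccnd2, Cdkn2a and Cdkn2c stand out against the narrow ones of the other 6 genes.

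Among the D cyclins, Ccnd1 and Ccnd2 moved in opposite directions. Ccnd1, the cyclin most directly induced by growth factors, had processed signals of 2591, 6645 and 4970 on the control arrays and 823, 615 and 650 on the Ctsk-Cre;Ano1fl/fl arrays. The highest of the latter was below the lowest control, and the spread lay mainly among the controls. The fall was 5.48-fold, a difference of -2.45 on the normalized log2 scale (SE 0.263, 95% CI -3.09 to -1.81, limma adjusted p = 0.000634), and it rests on a single probe. Folds here are ratios of normalized signals.

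Ccnd2, the D cyclin of many blood lineages, had signals of 2050, 4467 and 4320 on the control arrays and 12816, 8278 and 14047 on the others. The groups did not overlap, and control 1 was low here as it was for Ccnd1. Ccnd2 rose 4.02-fold, by 2.01 on the log2 scale (SE 0.259, 95% CI 1.38 to 2.64, limma adjusted p = 0.00131). All 3 of its probes rose, from 1.59 to 2.06, and the coding probe shown above gave the highest of these values.

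The ratio of both cyclins was also taken within each array, after normalization. Ccnd2 over Ccnd1 was 22.0-fold higher in Ctsk-Cre;Ano1fl/fl osteoclasts, a shift of 4.46 on the log2 scale against SDs of 0.19 among the controls and 0.35 among the others. The groups lay apart, and the exact two-sided permutation test gave p = 0.1, the smallest value that 3 arrays against 3 allow (0.125 after Benjamini-Hochberg adjustment over the 5 pairs compared).

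**Figure D2:**
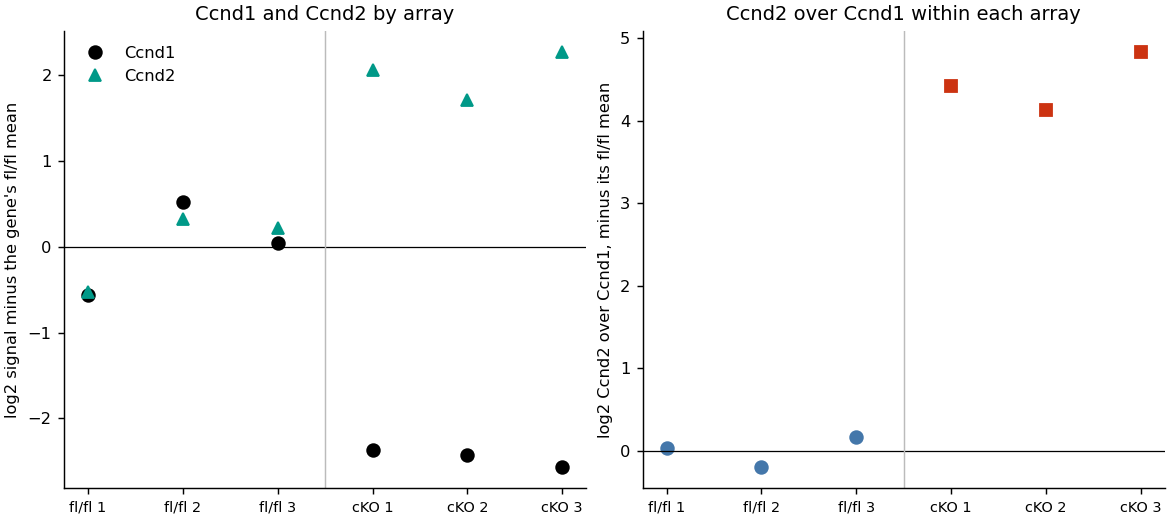
Left, normalized log2 signal of Ccnd1 (circles) and Ccnd2 (triangles) on each array, each minus its own Ano1fl/fl mean. Right, the log2 ratio of Ccnd2 over Ccnd1 within each array, minus its Ano1fl/fl mean (circles, Ano1fl/fl; squares, Ctsk-Cre;Ano1fl/fl). The 3 Ctsk-Cre;Ano1fl/fl arrays sit about 4.46 log2 units above the 3 controls.

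Ccnd3, which is prominent in maturing blood cells, had signals of 20031, 22690 and 23370 on the control arrays and 14545, 11395 and 13926 on the others. The difference was small but the replicates were tight (SD 0.04 and 0.05), and the groups did not overlap. The fall was 1.37-fold, a difference of -0.45 on the log2 scale (SE 0.0671, 95% CI -0.62 to -0.29, limma adjusted p = 0.0022). Its other probes gave -0.46 and -0.996, and since the first of these shares a stretch of 30 bases with the brightest probe, those readings are not separate evidence. In row 2 of the slide alone, against Ano1fl/fl 3, the difference was -0.42 and not called (limma adjusted p = 0.0623). Relative to Ccnd1, Ccnd3 was higher by 1.998 on the log2 scale in Ctsk-Cre;Ano1fl/fl osteoclasts, with the groups apart (exact permutation p = 0.1, adjusted 0.125). Relative to Ccnd2 it moved by -2.46 on the log2 scale, again with the groups apart.

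Both kinases of the D cyclins fell, by less than 2-fold. Cdk6, the kinase that predominates in blood cells, had signals of 6681, 10580 and 11958 on the control arrays and 5110, 4557 and 4875 on the others. The Ctsk-Cre;Ano1fl/fl values were close together and all lay below the lowest control. Cdk6 fell 1.62-fold, a difference of -0.70 on the log2 scale (SE 0.147, 95% CI -1.06 to -0.34, limma adjusted p = 0.00868). A further Cdk6 probe gave -0.67, and a dim one gave -0.45 with overlapping groups and was not called (limma adjusted p = 0.322 over all probes).

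Cdk4, the broadly expressed partner kinase, had signals of 12980, 17389 and 15843 on the control arrays and 11820, 8827 and 10630 on the others. After normalization the groups lay apart by a narrow margin, 13.70 on the lowest control and 13.55 on the highest other array. Cdk4 fell 1.23-fold, a difference of -0.29 on the log2 scale (SE 0.0818, 95% CI -0.49 to -0.09, limma adjusted p = 0.025). With slide row in the model, and so against Ano1fl/fl 3 alone, the value was -0.23 and not called (limma adjusted p = 0.202). The call was also lost without Ano1fl/fl 2 (-0.24), Ctsk-Cre;Ano1fl/fl 2 (-0.26) or Ctsk-Cre;Ano1fl/fl 3 (-0.29). Of its 4 probes 3 were called, of which the brightest and one other share 53 bases and are nearly 1 reading, and the coding probe shown above gave -0.22 and was not (limma adjusted p = 0.17). The ratio of Cdk6 to Cdk4 moved by -0.41 with overlapping groups (exact permutation p = 0.2). At 3 arrays per group that test cannot go below 0.1, so it cannot decide whether the kinases differ.

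The INK4 inhibitors of these kinases changed in opposite directions. Cdkn2c had signals of 6173, 6162 and 5202 on the control arrays and 1710, 1279 and 1567 on the others. No Ctsk-Cre;Ano1fl/fl array came near a control array. Cdkn2c fell 3.23-fold, a difference of -1.69 on the log2 scale (SE 0.145, 95% CI -2.04 to -1.34, limma adjusted p = 0.000273). The second Cdkn2c probe, which shares 40 bases with the first, gave -1.68.

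Cdkn2a had signals of 46.5, 43.4 and 43.8 on the control arrays and 288, 144 and 134 on the others. These are dim but well above background on all 6 arrays, and Ctsk-Cre;Ano1fl/fl array 1 was brighter than the other 2 of its group. The rise was 4.60-fold, 2.20 on the log2 scale (SE 0.251, 95% CI 1.59 to 2.81, limma adjusted p = 0.000795). Without that brightest array it was 1.94 (limma adjusted p = 0.00101). For so dim a probe the size depended on how background was handled, and normexp correction gave 1.30 (limma adjusted p = 0.000384). The rise rests on this single probe, as the other Cdkn2a probe was below background on all 6 arrays.

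Cdkn2a makes INK4a and ARF transcripts from separate start sites that share their later exons, and the array annotation assigns the probe to both, so the data do not separate them. RefSeq (GRCm38.p6) gives the upstream bases of both starts, and they are shown because the measured rise cannot be assigned to either. The first window is chr4:89294620-89294869 and the second chr4:89282193-89282442, both on the minus strand and ending at the base before the start. Capitals mark a match to an E2F motif, searched on both strands as TTTCCCGC, TTTGGCGC, TTTGCCGC and TTTCGCGC.
Cdkn2a upstream start: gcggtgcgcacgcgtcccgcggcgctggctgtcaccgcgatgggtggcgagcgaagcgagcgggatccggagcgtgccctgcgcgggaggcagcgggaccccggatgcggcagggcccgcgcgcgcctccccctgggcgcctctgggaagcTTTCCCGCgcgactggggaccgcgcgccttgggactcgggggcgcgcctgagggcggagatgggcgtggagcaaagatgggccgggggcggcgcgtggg
Cdkn2a downstream start: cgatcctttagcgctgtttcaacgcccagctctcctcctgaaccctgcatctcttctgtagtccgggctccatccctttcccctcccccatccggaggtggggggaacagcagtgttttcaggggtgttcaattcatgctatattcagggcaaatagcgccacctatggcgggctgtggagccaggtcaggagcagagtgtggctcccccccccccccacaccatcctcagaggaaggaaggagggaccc
The match begins 99 bases before the upstream start. It was the only E2F match in the 11 windows of the 7 genes that the promoter table covers, and 1.86% of all 32851 windows of 250 upstream bases hold one. A match describes the letters and is not evidence of binding.

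Of the Cip/Kip inhibitors, Cdkn1a was the gene of the 10 with no call. Its brightest probe had signals of 5545, 7293 and 6410 on the control arrays and 5820, 5253 and 5867 on the others. The groups overlapped. The difference was 0.09 on the log2 scale (SE 0.0904, 95% CI -0.13 to 0.31, limma adjusted p = 0.45) and the interval leaves room for a small fall or rise.

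Its other probes did not follow. The probe at transcript position 55 begins 9451 bases before the end of the brightest probe. RefSeq gives the gene 2 starts, 9744 and 6954 bases from its end, so this probe lies upstream of the downstream start. It had signals of 126, 115 and 116 on the control arrays and 267, 208 and 231 on the others. The groups were well separated. The signal rose by 1.20 on the log2 scale, 2.30-fold (SE 0.125, limma adjusted p = 0.000521 over 31848 probes). The third probe, which spans the ATG shown above, was dim at 40.9, 59.3 and 59.7 on the control arrays and 38.4, 30.1 and 24.7 on the others. It fell by 0.58 on the log2 scale (limma adjusted p = 0.0201). The array annotation lists both RefSeq transcripts for the bright probe, and how far each dim probe reads its own transcript alone was not tested.

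The sequences before both Cdkn1a starts are shown because the Cdkn1a probes disagree and 1 of them lies before the downstream start. The windows are chr17:29090729-29090978 and chr17:29093519-29093768 on the plus strand (RefSeq, GRCm38.p6). Capitals mark a match to the p53 response element, 20 letters of which at most 1 may differ from the consensus. The element was chosen for the search after these sequences had been read, and the allowance was made after the exact consensus had matched 0 of the 11 windows of the 7 genes covered and 3 of all 32851 windows, so the match is shown only as a description.
Cdkn1a upstream start: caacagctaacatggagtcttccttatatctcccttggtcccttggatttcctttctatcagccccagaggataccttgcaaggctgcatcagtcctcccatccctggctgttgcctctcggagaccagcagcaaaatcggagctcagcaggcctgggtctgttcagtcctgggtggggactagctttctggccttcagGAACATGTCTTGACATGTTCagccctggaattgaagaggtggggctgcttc
Cdkn1a downstream start: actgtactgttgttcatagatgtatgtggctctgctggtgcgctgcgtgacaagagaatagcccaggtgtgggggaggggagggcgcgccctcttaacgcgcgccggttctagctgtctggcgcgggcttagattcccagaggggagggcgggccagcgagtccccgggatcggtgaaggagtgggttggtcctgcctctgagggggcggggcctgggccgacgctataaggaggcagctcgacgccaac
The match begins 51 bases before the upstream start, and 0.0761% of all 32851 windows hold one. No such letters occur in the downstream window, which says nothing of elements farther away.

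Cdkn1b, which accumulates in resting cells, had signals of 3952, 4146 and 4558 on the control arrays and 3157, 2463 and 3298 on the others. The groups lay apart, the closest values being 11.83 and 11.78 after normalization. Cdkn1b fell 1.20-fold, a difference of -0.26 on the log2 scale (SE 0.0871, 95% CI -0.47 to -0.05, limma adjusted p = 0.047), close to the threshold. In the fit over all probes the same probe just missed it (limma adjusted p = 0.0528), and leaving out any array but Ctsk-Cre;Ano1fl/fl 3 ended the call (-0.32 to -0.21 over all 6 such fits). A dimmer probe gave -0.56 (limma adjusted p = 0.00918). The ratio of Cdkn1b to Cdkn1a moved by -0.35, with the groups apart (exact permutation p = 0.1, adjusted 0.125).

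Rb1, the target of the D cyclin kinases, gave a direction that depends on the probe. The brighter probe had signals of 2357, 3165 and 3564 on the control arrays and 3302, 2639 and 3659 on the others. Those values overlapped before normalization and were apart after it, by a rise of 0.33 on the log2 scale (SE 0.110, 95% CI 0.07 to 0.60, limma adjusted p = 0.0439). Leaving out any array but Ano1fl/fl 3 ended that call (0.25 to 0.40 over all 6 such fits). With slide row in the model, against Ano1fl/fl 3 alone, it was 0.21 and not called. The other probe had signals of 719, 763 and 1017 on the control arrays and 470, 423 and 559 on the others. It fell by 0.59 on the log2 scale (SE 0.131, limma adjusted p = 0.0101 over all probes). The mean of both probes was -0.13 and not called (limma adjusted p = 0.376), so no direction is given for Rb1 as a gene.

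**Figure D3:**
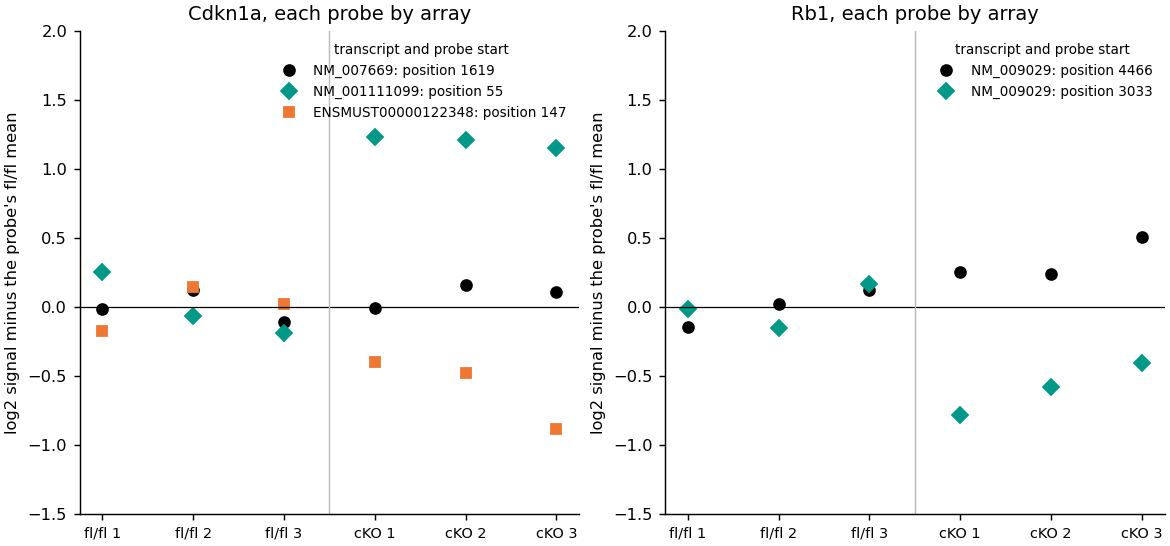
Log2 signal of each Cdkn1a probe (left) and each Rb1 probe (right) on the 6 arrays, minus the mean of that probe on the 3 Ano1fl/fl arrays. The legend names the transcript of the array annotation and the position of the probe on it. On the Ctsk-Cre;Ano1fl/fl arrays the probes of each gene separate in opposite directions.

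Over the 24 probes tested, 20 were called, 6 higher and 14 lower, where 52.4% of all 31848 probes were called. Of the 8 genes with more than 1 tested probe, 6 had probes of a single sign and Cdkn1a and Rb1 did not. Ccnd1 and Cdkn2a had 1 tested probe each.

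**Figure D4:**
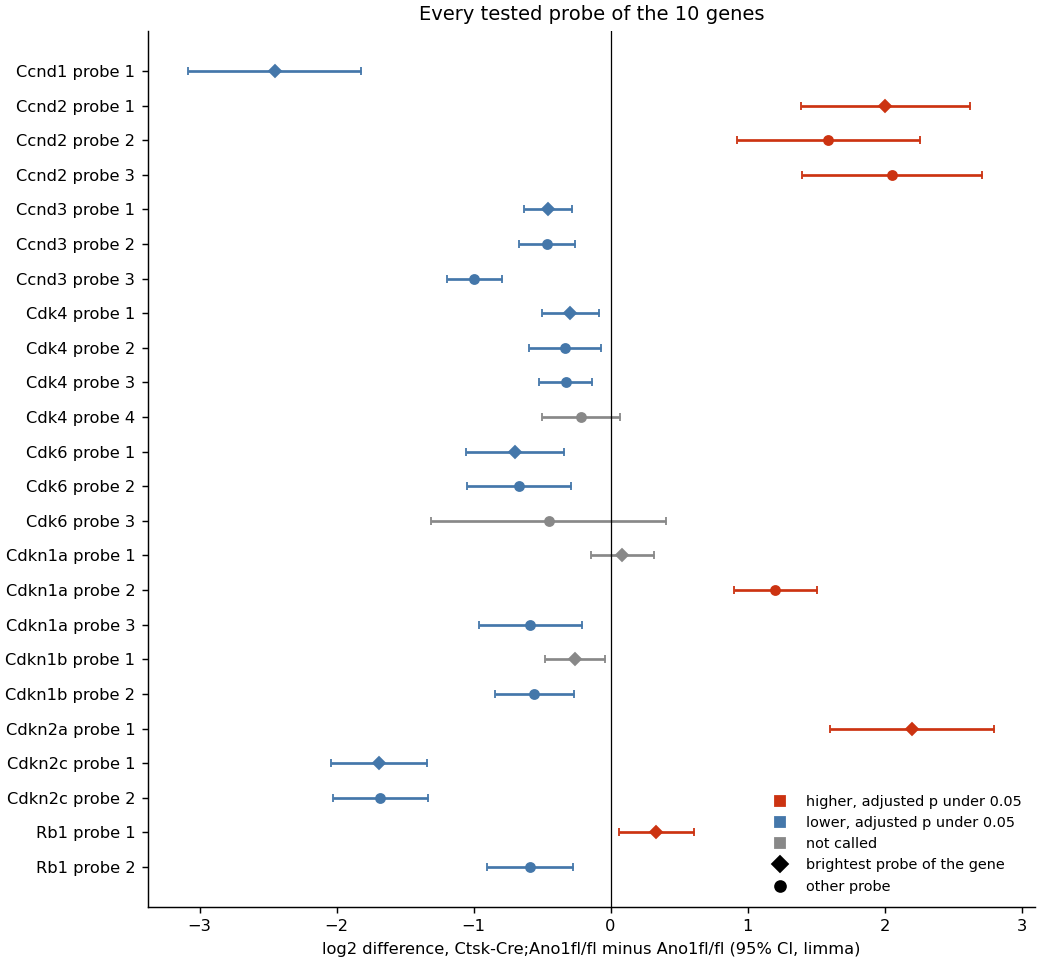
Log2 difference (Ctsk-Cre;Ano1fl/fl minus Ano1fl/fl) of each of the 24 tested probes with its 95% confidence interval from limma. Diamonds are the brightest probe of a gene and circles the others, and colours give the call at an adjusted p under 0.05. The probes of Ccnd2 and of Cdkn2c lie far from 0 on their own sides, and those of Cdkn1a and Rb1 straddle it.

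The profiles most like Cdkn2a were those of Loxl2, P4ha2 and Gli3, with a root mean square difference of 0.128, 0.137 and 0.146 on the log2 scale over the 6 arrays after centring each gene. Those most like Ccnd1 were Gpr35, Tcam1 and Rnf183, at 0.214, 0.223 and 0.227. Both genes had the highest rise and fall of the 10 in the normalized signals used here, although with normexp the rise of Ccnd2 (1.96) exceeded that of Cdkn2a (1.30), as it did with the series matrix (1.98 against 1.64), with the mean of all probes (1.88 against 1.46) and without Ctsk-Cre;Ano1fl/fl 1 (1.98 against 1.94). The 6 neighbours were picked for likeness among 13766 named genes, so the closeness itself is not a result.

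The next partners in the pathway gave 3 rises and 12 falls among the 24 of 25 listed genes that were tested, with a median of -0.55. These are shares of 12.5% and 50%, beside 23.4% and 29% of all tested genes. They are cyclins E and A, Cdk2 and its activators, further CDK inhibitors, the pocket proteins Rbl1 and Rbl2, and the E2F and DP factors. The largest fall was that of Ccna2, the S-phase cyclin, at -2.13, followed by the repressor E2f7 at -1.54 and the kinase subunit Cks1b at -1.32. Of the 3 E2f7 probes another gave -1.65 and the third -0.08. In row 2 of the slide alone fewer partners were called lower, as were fewer of all tested genes. The rises were Cdkn2b at 2.67, Cdk7, a kinase that activates other CDKs, at 0.63, and the activator E2f3 at 0.54. Both pocket proteins were lower, Rbl1 at -1.20 and Rbl2 at -0.74.

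Cdkn2b, the p15INK4b inhibitor, lies next to Cdkn2a on chromosome 4 and belongs with it by function. Its brightest probe had signals of 240, 177 and 171 on the control arrays and 1298, 1011 and 885 on the others. No value of a group fell within the range of the other. Its rise was 6.35-fold (SE 0.242 on the log2 scale, limma adjusted p = 0.000338), and its second probe gave 2.53. Among the INK4 genes Cdkn2a and Cdkn2b thus rose and Cdkn2c fell, as did Cdkn2d (p19INK4d) at -0.95 (limma adjusted p = 0.0026).

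Of 20 regulators of the 10 genes, 6 rose and 4 fell, shares of 30% and 20% beside 23.4% and 29% of all tested genes. Id3 at 2.37 and Id2 at 1.47, which hold back helix-loop-helix factors, and Foxo1 at 1.14, a factor of resting cells, rose most. Skp2, which marks p27 for destruction, fell by 1.02, Trp53, which encodes p53, by 0.87, and Ambra1, which directs D cyclins to degradation, by 0.34. The repressors of the Cdkn2a locus Bmi1, Cbx7 and Cbx8 were called higher by their brightest probe (0.45 to 0.60), but a second probe of each gave -0.37 to -0.16, so no direction is given for them. Averaging the probes of each gene turned the counts to 3 rises and 7 falls, so the balance of rises and falls among the regulators depends on the probes. Mdm2, the partner of ARF, was not called by its brightest probe (-0.07, limma adjusted p = 0.481), and a second probe gave -0.84.

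Genes downstream of the switch were mostly lower. Of 36 replication genes 30 fell and 2 rose, with a median of -0.73. These are shares of 83.3% and 5.56%, beside 29% and 23.4% of all tested genes. Far fewer were called lower with slide row in the model or in row 2 alone, both against Ano1fl/fl 3 as the single control. Fewer of all tested genes were called lower by these fits as well. The largest falls were Tk1 at -1.63, Rfc5 at -1.42 and Rrm1 at -1.35, genes of nucleotide supply and of the clamp loader, although a further Rfc5 probe gave 0.11. Ung (0.39) and Chaf1b (0.30) were the rises, and only 0 or 1 gene of the list was called higher when any single array was left out, with 75th percentile scaling or with slide row in the model. All 20 mitotic genes on the list fell by more than 2-fold, with a median of -1.85 and the largest falls in Cenpf (-2.69), Plk1 (-2.53) and Kif20a (-2.41). Beside these, 7.19% of all tested genes fell by more than 2-fold with a call. In row 2 alone, against Ano1fl/fl 3 as the single control, not all 20 mitotic genes were called lower.

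Of 18 tested p53 target genes other than Cdkn1a 13 rose and 1 fell, with a median of 0.51. These are shares of 72.2% and 5.56%, beside 23.4% and 29% of all tested genes, and among the rises Fas and Aen each had a further probe of the opposite sign (-0.43 and -0.78). Perp (2.80), Gdf15 (2.44) and Gadd45a (1.998) rose most, and Sesn1 fell by 1.31. Beside all of these lists stand the summed marker signals given above, and their part in the lists was not tested. They were higher for osteoclast, stromal, B cell, erythroid and osteoblast markers. They were lower for endothelial markers and for markers of neutrophils and their precursors. Within that last list the 8 lower genes ranged from Retnlg at -3.68 to Ngp at -0.30, with the early granule genes Mpo, Elane, Prtn3 and Ctsg at -3.46 to -3.25. Ltf was called higher (0.33), and S100a9 (0.20) and Camp (-0.12) were not called.

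**Figure D5:**
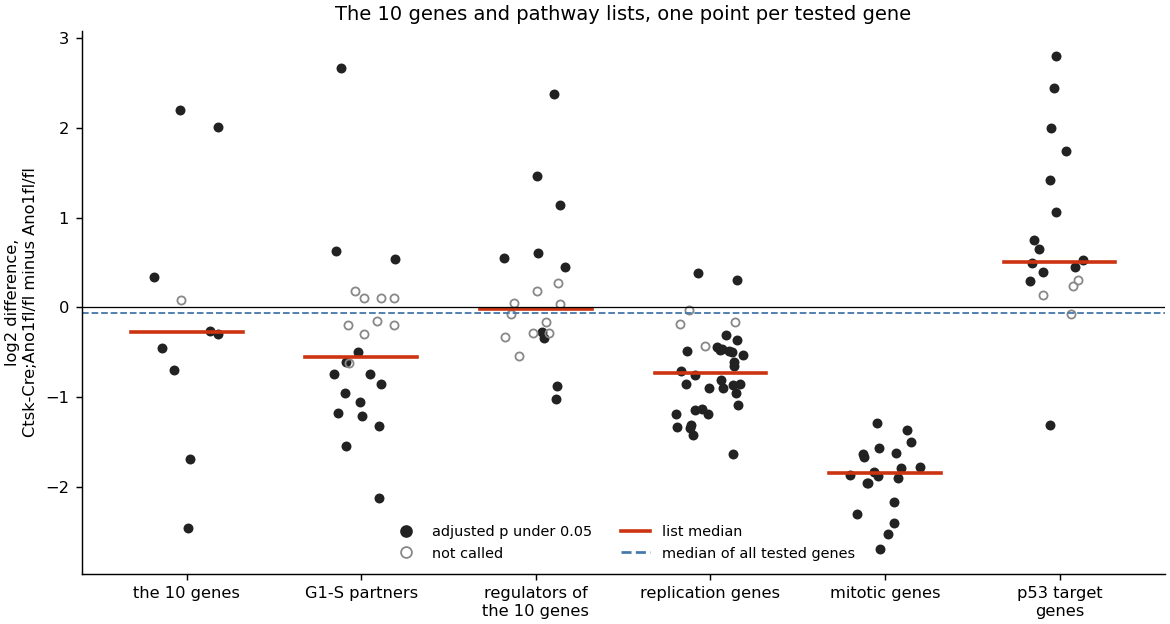
Log2 difference (Ctsk-Cre;Ano1fl/fl minus Ano1fl/fl) of every tested gene in the 10-gene set and in 5 pathway lists. Filled points passed an adjusted p under 0.05, open points did not, the red bar is the median of a list and the dashed line the median of all tested genes (-0.06). The mitotic genes lie wholly below 0, and the 10 genes are spread over both sides.

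Upstream sequence of these lists was read in the same way. An E2F motif was present in 25.7% of 35 windows of replication genes, 30.4% of 23 windows of the next partners, 5.88% of 17 windows of mitotic genes and 0 of 19 windows of p53 target genes, against 1.86% of all windows. The CHR element of mitotic genes, TTTGAA on either strand, was present in 41.2% of 17 windows of mitotic genes, against 16% of all windows. It was also present in 30.4% of the windows of the next partners, 21.1% of those of p53 target genes and 11.4% of those of replication genes, and in 0 of the 11 windows of the 7 genes covered. The E-box CACGTG, a palindrome, was found 4 times before Cdk4 and 1 time before Cdk6, and 6.02% of all windows hold it. Windows of p53 target genes held it in 26.3%, those of the next partners in 13% and those of replication genes in 8.57%, and 0 of the 17 windows of mitotic genes did.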

How the data were processed

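RNA of 3 Ano1fl/fl and 3 Ctsk-Cre;Ano1fl/fl osteoclast cultures was hybridised to 6 one-colour Agilent arrays. The authors deposited scanner intensities read with Agilent Feature Extraction 10.7.1.1, of which the background-subtracted, detrended processed intensity was used. The deposited series matrix holds the median spot intensity and served as an alternative. Control spots were dropped and outlier spots set to missing. Log2 intensities were quantile normalized between arrays, as the methods name that algorithm, and spots were averaged per probe. A probe was detected if no less than 0.5 of its spots rose well above background, and tested where detected on all 3 arrays of a group. A gene was its brightest probe over the 6 arrays. Groups were compared with limma 3.58.1 in R 4.3.3 (adjusted p under 0.05, Benjamini-Hochberg), and the fit was tested on simulated data. That simulation changed few probes and did not test the normalization. Named list genes are the 3 largest rises and falls that were called with groups apart, and Rbl1, Rbl2, Cdkn2d, Mdm2, Bmi1, Cbx7, Cbx8, Fas, Aen and single marker genes were named after their values were seen. The members and lists were chosen with earlier results of these data known. The p-values measure the spread between these 3 samples per group, which may be partly technical. The number of arrays limits precision. Alternatives covered scaling, background, filter, probe choice, test, replicate number, slide row and each array left out. Symbols are those of the array, and promoters are from RefSeq (GRCm38.p6), matched by symbol for 7 of the 10 genes and not used here for Ccnd1, Ccnd2 and Rb1. Promoter motifs were chosen after the data were seen.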

Additional observations from a re-analysis of the deposited data

How the results depend on the processing

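Ccnd1 (-2.73 to -2.19), Ccnd2 (1.74 to 2.17), Cdk6 (-0.92 to -0.59), Cdkn2a (1.30 to 2.41) and Cdkn2c (-1.83 to -1.40) kept direction and call under all 18 alternatives, and Cdkn1a stayed uncalled (0.0038 to 0.23). With 75th percentile scaling the median of all genes moved from -0.06 to -0.12, and Rb1 was 0.27 and not called. Without the filter on dim probes, and by the methods' t-test, Cdkn1b (-0.26) and Rb1 (0.33) were not called. With the mean of all probes, or of those above background, Rb1 was -0.13. The replicate numbers did not pair the samples (r of 0.00443, -0.0617 and -0.0808 for equal numbers, -0.123 to 0.179 for unequal ones). Which arrays share a litter is not stated, so litter was not modelled. The replicate block ended the calls of Cdk4 (-0.29) and Cdkn1b (-0.26), with 9279 genes called in place of 10826. Slide row, added after array positions were read, left 7009 genes as a block and 5435 in row 2 alone. Both take the difference from Ano1fl/fl 3 as the lone control, assumed to vary like the other group. Either way Cdk4 (-0.23), Cdkn1b (-0.25) and Rb1 (0.21) were not called, and 11 and 10 member probes were past the threshold in place of 20. Row 2 alone also lost Ccnd3 (-0.42), so that 3 members were lower. The cause was not tested. Leaving out each array in turn gave Cdk4 -0.33 to -0.24, Cdkn1b -0.32 to -0.21 and Rb1 0.25 to 0.40, with replication rises of 0 to 1.

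Among list counts, replication rises were 0 or 1 with 75th percentile scaling, no filter, the mean of all probes, the t-test, the replicate block and slide row. Probe means gave 3 rises and 7 falls of regulators and 2 falls of p53 targets. Slide row as a block gave 17 replication and 2 regulator falls. Row 2 alone gave 12 replication, 6 partner and 1 regulator falls, with 3 regulator rises. Asking for more than 2-fold gave 1 rise and 6 falls of partners, 3 and 1 of regulators, 0 and 10 of replication genes, 6 rises of p53 targets and 2 member falls. The position of an array on the slide is partly confounded with genotype, and for dim probes such as Cdkn2a the size of a change follows the background setting.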
